A study of Danio rerio with 6 samples.

Results

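DNA methylation was compared in the regions that stayed enriched for 5-methylcytosine in every library of a zebrafish dnmt1 knockdown. A member is a merged region on chromosome 1 or chromosomes 10 to 18 that held a peak in all 4 MeDIP peak lists and no peak of 3000 bp or more. Peaks were merged when they shared at least 1 base. Of 83479 merged regions, 25206 (30.2%) met the rule. The members were thus chosen by measured values, the presence and the width of peaks in these same 4 lists. MeDIP-seq pulls down DNA fragments that carry 5-methylcytosine with an antibody and sequences them. The libraries came from whole embryos at 80% epiboly, late in gastrulation, with 2 libraries from dnmt1 morphants and 2 from control embryos. Morphants are embryos treated with a morpholino, an antisense oligonucleotide, here directed at dnmt1. The sources used here do not state the sequence or dose of the morpholino, or whether the controls were injected. The peak lists hold no measure of the dnmt1 product and do not check the knockdown. The measured value is the fold enrichment of each peak, a ratio the authors deposited for each library on its own. The highest peak of a list stood for that list where a region held several, and width was the number of bases under the list's peaks. The sources used here do not state read depth, and the precision behind each fold is therefore unknown.

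Dnmt1 copies methylation from the parental DNA strand onto the newly made one during replication, guided by Uhrf1, which binds the half-methylated CpG sites left behind the fork. Without it, cell divisions dilute methylation passively. Most CpG sites of the zebrafish genome are methylated, in gene bodies, between genes and over transposable elements, while CpG-rich promoters are mostly free of it. An antibody against 5-methylcytosine recovers a fragment more readily the more methylated CpG sites it carries, so a MeDIP peak reflects both the methylation level and the density of CpG sites.

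Because the rule itself used the peaks of all 4 libraries, the values below are descriptions without a p-value. An exact permutation test of 2 against 2 libraries could in any case not give a two-sided p below 0.33. The labels do not tie replicates to separate clutches, and their spread may be technical.

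By the rule every member held a peak in both morphant lists, but the fold enrichment was lower there than in the controls. The median fold was 5.08 and 5.14 in the morphant libraries, against 6.63 and 6.66 in the control libraries. The group means of these medians were 5.11 ± 0.042 in morphants and 6.645 ± 0.021 in controls (SD, n = 2 each), a ratio of 0.769. The difference was many times this spread between replicates, which rests on 2 library medians per group and may be technical. The top of the distribution was drawn in more than the bottom. The rule needs a called peak in both morphant lists, which limits how low the morphant folds of members can go. The 95th percentile was 7.39 and 7.47 in the morphants, against 10.59 and 10.65 in the controls, while the 5th percentile was 3.56 and 3.61 in the morphants and 4.14 and 4.20 in the controls. Between these percentiles the morphants spanned a 2.08-fold and 2.07-fold range, and the controls a 2.56-fold and 2.54-fold range.

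**Figure D1:**
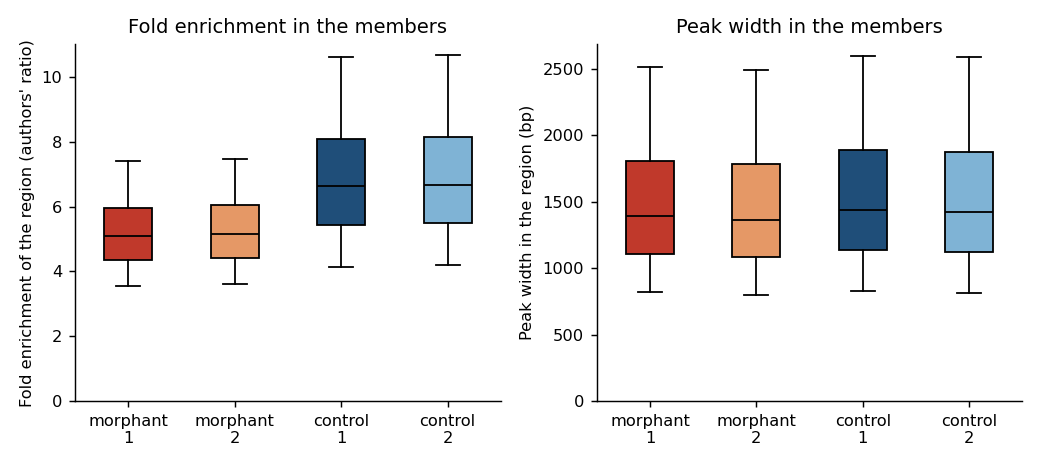
Fold enrichment (left) and peak width in bp (right) over the 25206 members, for 2 morphant and 2 control libraries. The line is the median, the box spans the quartiles and the whiskers run between the 5th and 95th percentiles. Median fold is 5.08 and 5.14 in the morphants against 6.63 and 6.66 in the controls, while the widths nearly coincide.

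Within the same region, the median log2 ratio of morphant to control fold was -0.38, taken between the geometric means of the 2 libraries of each group. This corresponds to a ratio of 0.767, and 87.1% of the members lay below 0. The middle 50% of the members lay between -0.60 and -0.16, and the 1st and 99th percentiles were -1.12 and 0.42. Each morphant library set against each control library gave nearly the same median, from -0.40 for morphant 1 over control 2 to -0.37 for morphant 2 over control 1. Between replicates the median log2 ratio was 0.01 for morphant 2 over morphant 1 and 0.01 for control 2 over control 1. Single regions varied more than these medians. The median absolute log2 ratio was 0.208 between the morphant replicates and 0.168 between the control replicates, against 0.393 between the groups.

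Both morphant folds lay below both control folds in 16901 members (67.1%), against 67.6% of all 29017 regions with a peak in every list, wide ones included. In 1045 members (4.15%) both morphant folds lay above both control folds, against 3.93% of those 29017 regions. The groups overlapped in the other 7260 members. The members make up most of the 29017 regions, and their shares were close to these background shares. Both sets grew when only 3 libraries were required. More regions then met the rule, and 1 library less makes overlap rarer by construction. Shares over all regions were not computed for these sets. Without morphant 1 or 2, the higher set held 3375 of 32137 and 2976 of 31224 members, and the lower set 24060 and 23819. Without control 1 or 2, the higher set held 2661 of 27034 and 2789 of 26836 members, and the lower set 20141 and 19735. The 16901 lower members had median folds of 4.98 and 5.05 in the morphants, against 7.29 and 7.34 in the controls. The 1045 higher members had medians of 5.69 and 5.72 in the morphants and 4.63 and 4.58 in the controls. The folds that sorted members into the lower and higher sets also give these medians, which are therefore descriptions only.

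**Figure D2:**
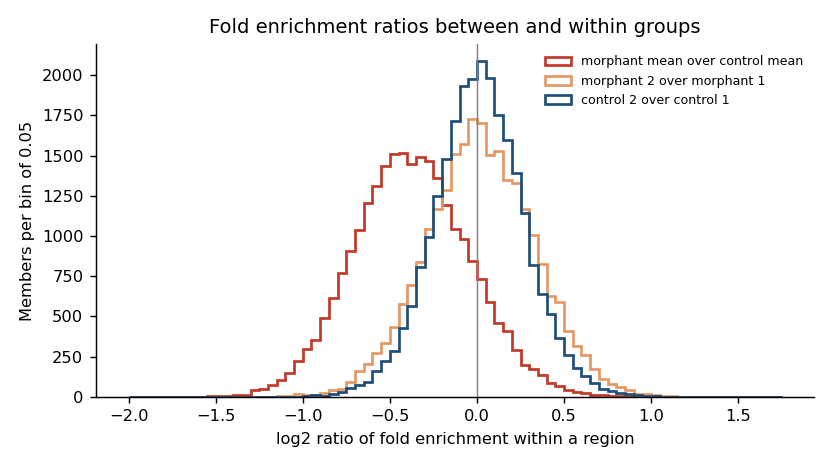
Number of members by log2 ratio of fold enrichment within a region, in bins of 0.05, for the morphant mean over the control mean (red), morphant 2 over morphant 1 (orange) and control 2 over control 1 (blue). The comparison between groups has its median at -0.38, and both comparisons within groups have theirs at 0.01.

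The order of the regions by fold was kept in part. Across the 25206 members, Spearman's rho of fold was 0.514 between the morphant replicates and 0.793 between the control replicates. It lay between 0.449 and 0.453 for the 4 pairs of a morphant with a control library. The log2 ratio was also correlated between library pairs. Its rho was 0.442 between morphant 1 over control 1 and morphant 2 over control 2, which share no library. The 2 denominators had a rho of 0.793 with each other, so control strength common to both enters both ratios. The value therefore does not separate a repeatable change of a region from its control strength. CpG density, which differs between sites and can enter every library, was not measured here.

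A stronger control peak went with a lower ratio among the members. Members were ranked by one control library and compared with the other control library. Noise particular to the ranking library thus did not enter the ratio. Variation shared by both control libraries would still enter the ranking and the ratio, and its size is not known. In the 10% of members weakest in control 1, the median fold was 4.31 and 4.33 in the morphants and 4.58 in control 2, a median log2 ratio of -0.08. In the 10% strongest in control 1, the medians were 6.23 and 6.29 in the morphants and 10.1 in control 2, a log2 ratio of -0.70. Ranking by control 2 gave -0.06 and -0.69 against control 1. Cut into 10 groups of equal size, the members had a lower ratio at every step up in control fold, in both rankings and in both morphant libraries. At the very top, the 252 members strongest in control 1 had median folds of 6.93 and 6.995 in the morphants and 12.48 in control 2, a ratio of 0.558, and 249 of them were lower in the morphants. With one control library as the instrument for the other, an estimate that noise in a single control does not flatten, the slope of log2 morphant fold on log2 control fold was 0.454 (0.452 to 0.456 over the 4 library pairs). A doubling of the control fold thus went with a 1.37-fold higher morphant fold.

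The gradient differed when regions outside the members were counted as well. By the rule, a weak control region is a member only where both morphants had a peak. Of the 48383 regions with a peak in both control lists and no peak of 3000 bp or more, 52.1% were members. The share was 36.1% in the weakest 10% by control 1 and 78.3% in the strongest 10%. When all these regions were followed, and a region without a morphant peak was counted as lowest there, the steady decline was no longer seen. In groups of 25% by control 1, weakest to strongest, the median log2 ratio of morphant 1 to control 2 was -0.75, -0.67, -0.64 and -0.71. That of morphant 2 was -0.63, -0.61, -0.60 and -0.69. The strongest group was thus lower than the one before it, by less than among the members. In the weakest group only 51.6% and 53.4% of the regions had a peak in morphant 1 and 2, so its medians lie close to the regions counted as lowest. Among the members alone, the strongest and weakest 25% differed by -0.46, taken on the mean of both morphants and averaged over both rankings. Over all these regions the difference was 0.0135, averaged over each morphant taken singly and both rankings. This way of counting was added after the data were seen. It assumes that a region with no peak has a lower fold than any called one. It changes the set of regions and gives absent peaks a value at once, and the part of each was not tested.

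**Figure D3:**
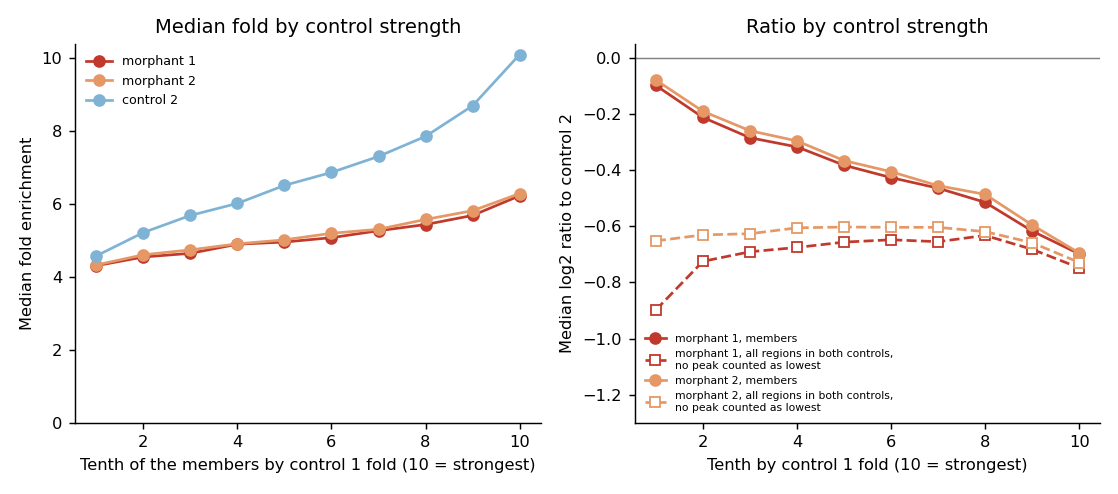
Left, median fold enrichment in 10 equal groups of the members ranked by control 1, for both morphants and control 2. Right, median log2 ratio of each morphant to control 2 by group, for members (filled circles) and for all regions in both control lists with absent morphant peaks counted as lowest (open squares). The members decline to -0.70 in the strongest group, and the open squares stay lower throughout, dip again in the strongest groups and show no steady decline.

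Regions that kept a peak in the morphants had stronger and wider control peaks than regions that did not. Among regions with no peak of 3000 bp or more, the members had control medians of 6.63 and 6.66 in fold and 1435 and 1422 bp in width. The 12131 regions in both control lists and 1 morphant list had 5.86 and 5.95, and 1179 and 1169 bp. The 11046 regions in both control lists and neither morphant list had 5.56 and 5.52, and 1066 and 1053 bp. These are descriptions, since the lists that define the classes also give the values.

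Peak width differed far less than fold. The median width of the members was 1391 and 1366 bp in the morphants, against 1435 and 1422 bp in the controls, or 1378.5 ± 17.7 and 1428.5 ± 9.19 bp (SD, n = 2 each). The median log2 ratio of width within a region was -0.03, and 55.1% of the members lay below 0. That value is of the size of the replicate ratios, which had medians of -0.02 for morphant 2 over morphant 1 and -0.01 for control 2 over control 1. Both morphant widths lay below both control widths in 6156 members (24.4%), against 25.7% of all 29017 regions in every list. Both lay above in 4536 members (18%), against 17.6% of those regions. With 1 library left out, more regions met the rule and overlap is rarer by construction, and these counts were larger. Shares over all regions were not computed for them. Leaving out morphant 1 gave 13395 and 9828 of 32137 members, and leaving out morphant 2 gave 11797 and 10619 of 31224. Leaving out control 1 gave 10021 and 8917 of 27034 members, and leaving out control 2 gave 10483 and 8370 of 26836. Of the 16901 members with lower fold, 26.0% were also narrower and 16.6% wider by the same rule. Of the 1045 with higher fold, 18.9% were narrower and 28.2% wider. Across members the log2 ratios of fold and width had a rho of 0.086.

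The widest members were slightly narrower in the morphants. In the 10% widest in control 1, the median width was 2261 and 2246 bp in the morphants and 2486.5 bp in control 2, a median log2 ratio of -0.12. In the narrowest 10% it was 948 and 921 bp in the morphants and 914 bp in control 2, a log2 ratio of 0.04. These ratios use the mean of both morphants. Taken alone, morphant 1 and morphant 2 gave smaller ratios of -0.08 and -0.10 in the widest 10%. In the narrowest 10% they gave 0.05 and 0.01. The lower fold was seen at every width. The median log2 fold ratio was -0.28 in the narrowest 10% by control 1 and -0.40 in the widest, and reached -0.42 where control 1 peaks had a median of 1504 bp.

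The peaks of a member lay close together. A single peak in every list was found in 22958 members (91.1%), and in 22780 of these all 4 peaks shared at least 1 base, which the merging rule nearly fixes. Their shared core had a median of 1095 bp out of 1665 bp covered by any of the 4 peaks, or 69.8% of the covered bases. Peak centres lay a median of 76 bp apart between the morphant replicates and 68.5 bp between the control replicates, against 89 to 91 bp between a morphant and a control library. The left edge differed by a median of 2.5 bp and the right edge by -6.5 bp between morphants and controls.

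The 3 members nearest the median ratio illustrate its size in single regions. On chromosome 12, chr12:20235871-20237393 had folds of 6.46 and 5.72 in the morphants, against 8.31 and 7.56 in the controls. On chromosome 10, chr10:1987425-1988686 had 5.81 and 5.35 in the morphants and 7.35 and 7.19 in the controls. On chromosome 18, chr18:41213843-41215341 had 5.36 and 4.52 in the morphants and 6.26 and 6.58 in the controls. In each of them the groups did not overlap. Positions are as the authors' lists give them, on a build that the sources used here do not name. Genes and sequences at these places were not analysed here.

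The lowest ratios belonged to regions with strong control peaks, which the choice by ratio largely fixes. The control fold is the denominator, and no member had a fold below 2.42 in morphant 1 or 2.34 in morphant 2. The lowest of all, chr16:43820491-43822275, had folds of 3.85 and 3.50 in the morphants, against 11.28 and 10.89 in the controls, a ratio of 0.331. Next came chr16:7161216-7162706, with 4.31 and 4.93 in the morphants and 12.41 and 14.43 in the controls. On chromosome 17, chr17:2545922-2547597 had 4.16 and 6.20 in the morphants and 16.17 and 13.29 in the controls. The remaining 2 of the 5 lowest, chr18:26967813-26969693 and chr14:3940547-3942475, had ratios of 0.351 each. The lowest region measured 1654 and 1518 bp in the morphants and 1751 and 1669 bp in the controls. The log2 width ratios of the 5 ran from -0.40 to -0.04, and the narrowing was clearest at chr18:26967813-26969693, with 1428 and 1269 bp in the morphants and 1783 and 1773 bp in the controls.

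A small set of members went the other way. The highest ratio, 1.87, was at chr17:20619070-20620768, with folds of 10.21 and 6.44 in the morphants and 4.33 and 4.35 in the controls. The morphant replicates were far apart there. At chr15:14831303-14832894 they were closer, with 13.70 and 16.85 in the morphants against 8.31 and 8.25 in the controls. The region chr15:10371061-10373953 had 5.69 and 8.55 in the morphants and 3.71 and 3.98 in the controls, and it was also narrower, at 888 and 895 bp in the morphants against 2853 and 2169 bp in the controls. The remaining 2 of the 5 highest, chr16:5246372-5248472 and chr10:33683296-33685057, had ratios of 1.78 each.

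The strongest control region of each chromosome was much lower in the morphants on 8 of the 10 chromosomes. On chromosome 11, chr11:27592962-27594256 had 6.23 and 7.59 in the morphants, against 16.40 and 18.44 in the controls, a ratio of 0.395. On chromosome 14, chr14:15455128-15456737 had 6.62 and 6.52 in the morphants and 17.31 and 14.20 in the controls, a ratio of 0.419. Those of chromosomes 17, 13, 15, 12, 18 and 10 had ratios of 0.439, 0.456, 0.465, 0.483, 0.487 and 0.530. The 2 exceptions carried the highest control folds of all. On chromosome 1, chr1:39929079-39930804 had 21.00 and 19.83 in the morphants, against 21.53 and 21.75 in the controls, a ratio of 0.943. On chromosome 16, chr16:36373944-36375360 had 20.05 and 18.29 in the morphants and 19.96 and 20.17 in the controls, so the groups overlapped.

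A cut at a control fold of 14, chosen after these values were seen, separated the same kinds of region. Of the 44 members at or above it, 41 had log2 ratios from -1.53 to -0.68, with a median of -1.01 (a ratio of 0.496). The same control folds chose these regions and enter the ratio, which can place it too low, as for the strongest region of each chromosome above; ranked in one control and set against the other, the strongest 252 members had ratios of 0.558 and 0.557. Their morphant folds did not exceed 10.62 in morphant 1 and 9.22 in morphant 2. The other 3 had log2 ratios of -0.08, -0.07 and 0.09, and none of the 44 lay between these values and -0.68. The third of them was chr16:36321563-36322665, with 20.78 and 18.12 in the morphants and 18.68 and 17.87 in the controls.

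**Figure D4:**
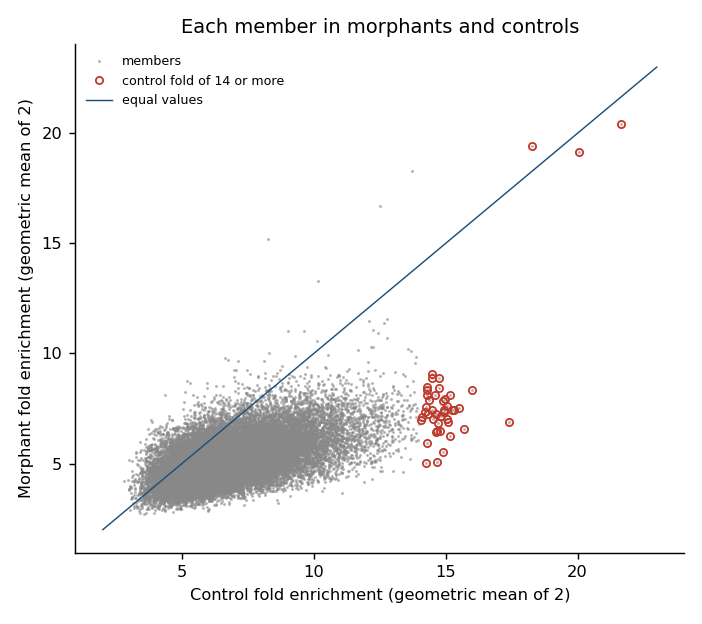
Morphant against control fold enrichment of each of the 25206 members, as geometric means of the 2 libraries per group. Red circles mark the 44 members with a control fold of 14 or more, and the line marks equal values. Most circles sit well below the line, and 3 sit on or near it at folds of 18 or more.

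Of those 3, 2 lay close together on chromosome 16. A morphant fold of 10 or more, again a limit set after the values were seen, was found in 22 members, 8 of them on chromosome 16. Of these 8, 5 formed a run with gaps under 100 kb, between positions 36259233 and 36453337, which held 16 members in all. The median folds of the 16 were 8.87 and 7.81 in the morphants, against 9.245 and 9.24 in the controls, and their median log2 ratio was -0.16. Both morphant folds were below both control folds in 8 of the 16 and above them in 3. Over all 29017 regions with a peak in every list, the shares were 67.6% below and 3.93% above. At one end of the run, chr16:36259233-36259898 had 17.70 and 15.77 in the morphants and 12.30 and 12.71 in the controls. The next member, chr16:36276652-36277977, had 6.46 and 6.68 in the morphants and 6.38 and 5.15 in the controls. Farther along, chr16:36305390-36306765 had 9.45 and 8.66 in the morphants and 13.50 and 13.28 in the controls. The run was found through high morphant folds, which also enter its ratio. The megabase that holds the run, from 36000001 to 37000000, had a median log2 ratio of -0.28 over 52 members, those 16 included. Pairs of members with a morphant fold of 10 or more also lay under 100 kb apart on chromosome 12, starting at 23851774 and 23857661. The same was seen on chromosome 18, starting at 28096870 and 28109118.

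The lower fold was seen on each of the 10 chromosomes compared. The median log2 ratio of the 10 chromosomes lay between -0.40 on chromosome 17 and -0.36 on chromosome 11, a range of 0.04. Chromosome 17 had median folds of 5.08 and 5.15 in the morphants, against 6.72 and 6.76 in the controls. Chromosome 11 had 5.11 and 5.14 in the morphants and 6.61 and 6.62 in the controls. The share of members with both morphant folds below both control folds ran from 65.4% on chromosome 11 to 68.8% on chromosome 14. In 1 Mb windows with at least 20 members, both morphant medians lay below both control medians in all 508 windows. The middle 90% of the windows had log2 ratios between -0.48 and -0.26.

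The lowest window was on chromosome 14, from 22000001 to 23000000, where 45 members had median folds of 5.69 and 5.45 in the morphants and 8.43 and 8.35 in the controls. The highest was on chromosome 11, from 43000001 to 44000000, where 58 members had 5.085 and 5.315 in the morphants and 6.255 and 6.19 in the controls. Across windows the ratio was lower where the control median was higher, with a rho of -0.520 over 508 windows, which share their control libraries with the ratio.

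Toward the chromosome ends both groups had weaker peaks and the ratio was slightly nearer 0. In the outer 10% at each end, 5075 members had median folds of 4.89 and 4.93 in the morphants and 6.25 and 6.27 in the controls, a log2 ratio of -0.34. In the middle 20%, 4893 members had 5.23 and 5.31 in the morphants and 6.83 and 6.96 in the controls, a log2 ratio of -0.39. The difference was 0.0446. It turned to -0.0177 when members of like control fold were compared, an alternative added after the data were seen. Widths behaved otherwise. Members near the ends measured 1469 and 1447 bp in the morphants and 1584 and 1557 bp in the controls, and those in the middle 1356 and 1338 bp in the morphants and 1375 and 1366 bp in the controls.

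**Figure D5:**
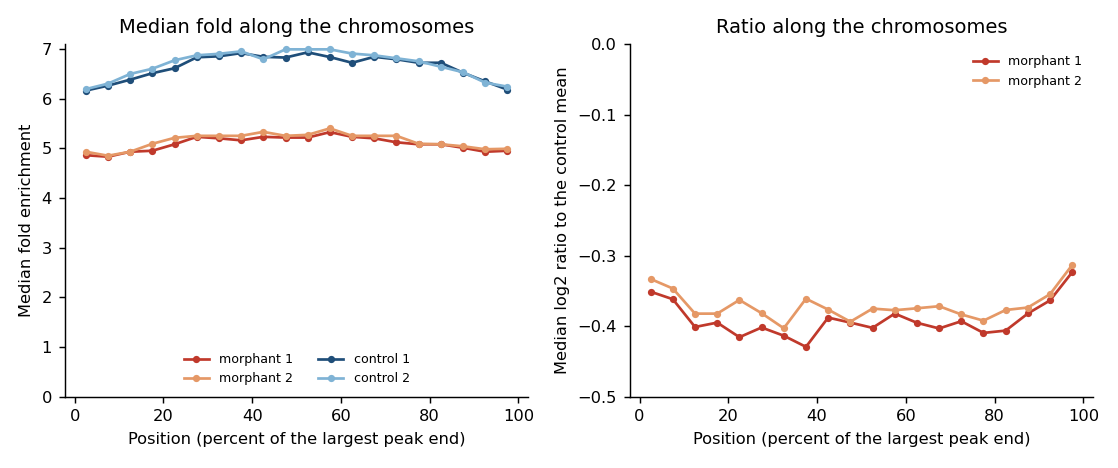
Median fold enrichment per library (left) and median log2 ratio of each morphant to the control mean (right), in steps of 5% of chromosome length over the 10 chromosomes, with length taken as the largest peak end listed. Control medians are lower at both ends than in the middle, and the ratio stays between -0.43 and -0.31 throughout.

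Neighbouring members did not share their ratio. The rho between the log2 ratio of a member and that of the next one on the chromosome was -0.000387 over 25196 pairs, with a median gap of 12092 bp. Among the 25% of pairs closest together, at most 5754 bp apart, it was -0.028. The folds themselves were more alike between such close neighbours, with a rho of 0.184 for morphant fold and 0.067 for control fold. The ratio of a region had a rho of 0.442 between library pairs, in which control strength common to both pairs can take part. No such likeness was seen between neighbours.

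The 447 members whose widest peak measured 2900 bp or more had a median log2 fold ratio of -0.39, and the 407 excluded regions whose widest peak was under 3100 bp had -0.36. Just inside the width limit, 2 regions had a widest peak of 2999 bp. On chromosome 12, from 7313457 to 7316515, folds were 4.34 and 5.27 in the morphants and 6.98 and 6.58 in the controls. Folds of the second, on chromosome 15 from 20601873 to 20605260, were 5.24 and 4.90 in the morphants and 9.91 and 13.39 in the controls. Just outside, 2 regions had a widest peak of 3000 bp. On chromosome 16, from 2353870 to 2356889, folds were 3.77 and 4.45 in the morphants and 5.34 and 5.80 in the controls. Folds of the second, on chromosome 10 from 13816453 to 13819480, were 5.65 and 5.21 in the morphants and 5.20 and 5.12 in the controls, so these regions did not all point one way. All 3811 excluded regions had a median log2 fold ratio of -0.35. Their median log2 width ratio was -0.10, against -0.03 among the members. The limit that excluded them is set on these same widths.

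Fold enrichment also moves with read depth and with the efficiency of the pull-down, and neither is given for any library. Their part in the common shift of about -0.38 was not tested. The morphant lists hold fewer peaks on the 10 chromosomes, 47665 and 49396 against 64400 and 65490 in the control lists. Of these, 54.2% and 52.5% of the morphant peaks but 40.8% and 40.3% of the control peaks lay in members.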

How the data were processed

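MeDIP-seq peak lists of 4 libraries were used (2 dnmt1 morphant, 2 control). The authors deposited 1 list per library with chromosome, start, end and fold enrichment, a ratio, per the file headers. TopHat2, BWA, HTSeq 0.6.1 and MACS2 are named in the submitters' processing notes with no role stated. The sources used here do not state the build, peak threshold, input or read depth. Each list holds 65516 peaks and stops part-way through a chromosome, so lists were compared on the 10 chromosomes complete in all. RNA tables were not used here.

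Members and results were chosen with earlier results of these data known. Named regions have 1 peak in every list. They are the strongest control region per chromosome, the 5 lowest and 5 highest ratios without overlap between groups, the 3 nearest the median ratio, and those at the width limit; others are marked as chosen later. No count test applied. The steps were tested on simulated lists that left out peaks at random, not by fold. That test does not cover the loss of weak regions seen in these data. Python 3.11.15, numpy 2.4.6, pandas 2.3.3 and matplotlib 3.10.9 were used. Alternatives covered the overlap, list length, width limit, several peaks in a region, each library left out and pairing by number.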

Additional observations from a re-analysis of the deposited data

How the results depend on the processing

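The lower fold in morphants (median log2 ratio -0.38, 16901 members lower without overlap) and the small width ratio kept their direction under every alternative run. With the lowest 25% of each list left out, 15753 members were found, the fold ratio was -0.40, 331 members were higher in fold, 3755 narrower and 2755 wider, and the chromosome range was 0.0517. With equal numbers of the strongest peaks, the fold ratio was -0.45 and 317 of 20117 members were higher in fold. Each list was cut there to 47665 peaks, the length of the morphant 1 list on the 10 chromosomes. The cut took weak peaks mainly from the control lists, which held 64400 and 65490. It thus raises the lowest control folds more than the morphant ones by construction, which favours lower ratios. With a limit of 2000 bp, 3895 of 17478 members were narrower and the chromosome range was 0.0457. Shares over all regions in every list were not computed for the counts under these alternatives. The difference in fold ratio between the strongest and weakest 10%, -0.62, was -0.53 without the lowest 25%, -0.41 with equal numbers, -0.57 with no width limit, -0.67 with 2000 bp, -0.46 between the outer 25% groups and -0.78 when the ranking controls also entered the ratio. Among the members, that -0.46 was taken on the mean of both morphants. Over all regions of both control lists, with absent peaks counted as lowest, the outer 25% groups differed by 0.0135, averaged over single morphants. The values per morphant and ranking ran from -0.0538 to 0.0665, with no common sign. This alternative was added after seeing the data, and its set of regions differs by construction.

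The width difference between the widest and narrowest 10%, -0.16, was -0.11 with a reciprocal overlap of 50%, -0.14 without the lowest 25%, -0.11 with equal numbers, -0.17 with no limit, -0.13 with 2000 bp, -0.12 with the mean of several peaks, with single peaks and between the outer 25% groups, and -0.31 when ranked by both controls. The difference between ends and middle, 0.0446, was 0.0388 with reciprocal overlap, 0.0394 with the mean of several peaks, 0.0315 without the lowest 25%, 0.0214 with equal numbers, 0.0506 with no limit, 0.0462 with single peaks, 0.0459 with the outer 5 Mb, and -0.0177 within 10 groups of like control fold (added later). The neighbour rho was 0.0058, 0.012, 0.00804, 0.0144, -0.0075 and -0.0068 with reciprocal overlap, without the lowest 25%, with equal numbers, with no limit, with 2000 bp and with single peaks. The causes were not tested.

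Leaving out each library gave 26836 to 32137 members, fold ratios of -0.38 to -0.36, 2661 to 3375 members higher in fold, 10021 to 13395 narrower and 8370 to 10619 wider (1 library less makes overlap rarer by construction), end differences of 0.0292 to 0.0435 and neighbour rho of -0.0102 to 0.000962. Without a morphant library the strength difference was -0.61 and -0.60 and the width difference -0.11 to -0.10; without a control library these cannot be computed. Replicate numbers are shared, but the labels do not say whether they pair the samples. Deviations of same-numbered libraries had a rho of 0.0065 for fold. This value cannot decide the question, since a shift common to all regions of a library would not enter it. With the replicate block, the width difference was -0.12 and the end difference 0.0396. Each morphant fold lay below that of its same-numbered control in 18480 members. That rule is looser than both morphants below both controls, so this count is not comparable with the main one. No share over all regions was computed for it. Depth limits each region's value and is not known.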
